A study of Homo sapiens with 11 samples.

Results

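The 37 genes of the human mitochondrial genome were followed in 11 RNA-seq libraries from BT483 and T47D-TamR, a pair of human breast cancer lines. They were taken as every gene symbol that starts with MT-, 37 of 59087 symbols in the count tables. They encode 13 mRNAs, 2 ribosomal RNAs (rRNAs) and 22 transfer RNAs (tRNAs). On chrM of GRCh38, 28 of them lie on the plus strand and 9 on the minus strand, which holds MT-ND6 and 8 tRNAs. Mitochondrial DNA is transcribed from both strands as long precursors by a dedicated polymerase, POLRMT, with the DNA-binding protein TFAM. tRNAs punctuate most of these precursors, and their excision releases the mRNAs and rRNAs, which then turn over at their own rates. The mRNAs encode membrane subunits of respiratory complexes I, III and IV and of the ATP synthase (complex V), while the remaining subunits and the factors that copy, cleave and modify mitochondrial RNA are encoded in the nucleus.

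The study asked what lowering nemo-like kinase (NLK), a protein kinase of the MAP kinase family that acts in Wnt signalling, does in endocrine-resistant breast cancer cells. BT483 is an estrogen receptor positive ductal carcinoma line, and T47D-TamR was derived from T47D by continuous passage in tamoxifen, an antiestrogen. All cells were first kept without estrogen for 48 h. Each line then received 1 of 4 treatments for 72 h, with 10 nM of small interfering RNA (siRNA) in every one: NLK siRNA type 1, NLK siRNA type 2, control siRNA with 0.5 µM tamoxifen, or control siRNA alone. A drug arm without siRNA, in T47D-TamR only, had 0.5 µM VX-702 (an inhibitor known for p38 MAP kinase), DMSO with 0.5 µM tamoxifen, or DMSO. Each of these 11 groups was 1 library. Per the labels, BT483 was grown in serum-containing medium and T47D-TamR in charcoal-stripped serum with tamoxifen, so line and culture history cannot be told apart. Where 4 values are listed for a line, their order is type 1, type 2, control siRNA with tamoxifen, control siRNA, and those of T47D-TamR are its siRNA arm. A range given for T47D-TamR covers all 7 of its libraries unless an arm is named.

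Total counts ran from 14637083 to 26915863, and the lowest were BT483 with type 1 (14637083) and with control siRNA (16859630). NLK stood at 5.41 to 12.2 CPM (counts divided by a TMM-adjusted library size) in the 4 knockdown libraries and at 28.1 to 34.5 CPM in the other 7. All 8 luminal breast markers were detected in every library. They summed to 13760 to 15650 CPM in BT483 and 5707 to 8285 CPM in T47D-TamR. Among them, ESR1 had 121 to 153 CPM in BT483. In T47D-TamR it had 20.7 to 32.5 CPM in the siRNA arm and 21.3 to 22.4 CPM in the drug arm. The 10 fibroblast markers summed to 11.9 to 14.7 CPM in BT483 and 53.3 to 78.6 CPM in T47D-TamR, most of it COL1A1, and between 0 and 4 of the 10 were at 0 in a library. The libraries were made with a stranded kit for poly(A) RNA, so the levels of rRNAs and tRNAs are those of molecules that this kit retained. The labels do not say that any libraries were separate cultures of 1 treatment. Other treatments or the other line therefore served as replicates in the tests, and a p-value reflects no more than the spread among these 11 samples, which may be technical.

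Sequences are shown for 8 of the 22 tRNAs, picked because their levels differed between the lines, as described further on. MT-TQ and MT-TE of the minus strand, lower in BT483, and MT-TT of the plus strand, higher there, are not among them. The sequences are those of the reference (GENCODE 29 transcripts on GRCh38), not of either line. They are in the RNA sense as DNA letters with the anticodon in capitals. The first 4 are encoded on the minus strand and were higher in BT483 than in T47D-TamR; they lie at chrM:5657-5729 (asparagine), chrM:5761-5826 (cysteine), chrM:5826-5891 (tyrosine) and chrM:15956-16023 (proline).
MT-TN: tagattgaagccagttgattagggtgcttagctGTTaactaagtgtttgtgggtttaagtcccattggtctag
MT-TC: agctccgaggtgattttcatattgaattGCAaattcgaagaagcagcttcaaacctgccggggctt
MT-TY: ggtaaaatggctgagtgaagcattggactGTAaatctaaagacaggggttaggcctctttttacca
MT-TP: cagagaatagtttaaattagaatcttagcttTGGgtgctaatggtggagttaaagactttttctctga
The next 4 are encoded on the plus strand and were lower in BT483; they lie at chrM:1602-1670 (valine), chrM:9991-10058 (glycine), chrM:10405-10469 (arginine) and chrM:12138-12206 (histidine).
MT-TV: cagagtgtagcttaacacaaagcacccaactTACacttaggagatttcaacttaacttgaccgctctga
MT-TG: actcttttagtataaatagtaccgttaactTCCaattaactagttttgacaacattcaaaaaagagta
MT-TR: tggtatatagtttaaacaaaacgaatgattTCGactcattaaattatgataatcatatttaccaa
MT-TH: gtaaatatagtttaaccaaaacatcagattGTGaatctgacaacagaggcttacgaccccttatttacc

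Mitochondrially encoded RNA took a larger share of the library in BT483 than in T47D-TamR. The share was 9.996%, 9.18%, 11.54% and 10.23% in the 4 BT483 libraries, against 6.92%, 6.53%, 6.47% and 7.41% in the siRNA arm of T47D-TamR and 8.61% (VX-702), 8.42% (DMSO with tamoxifen) and 7.79% (DMSO) in its drug arm. Every BT483 library lay above all 7 T47D-TamR libraries. In the 4 matched treatments the ratio of BT483 to T47D-TamR lay between 1.38 and 1.79 (SD 0.19). Wilson 95% intervals on these shares, which cover counting error only since PCR copies are not independent molecules, were narrower than the gaps between lines: 9.17 to 9.19% for the lowest BT483 library and 8.597 to 8.62% for the highest T47D-TamR library. In bulk RNA a change in cell composition and a change in RNA per cell cannot be told apart. Of the mitochondrial counts, mRNAs held 86.9 to 91.0% in BT483 and 80.0 to 82.3% in T47D-TamR. The rRNAs held 8.38 to 11.97% in BT483 and 17.2 to 19.7% in T47D-TamR.

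**Figure D1:**
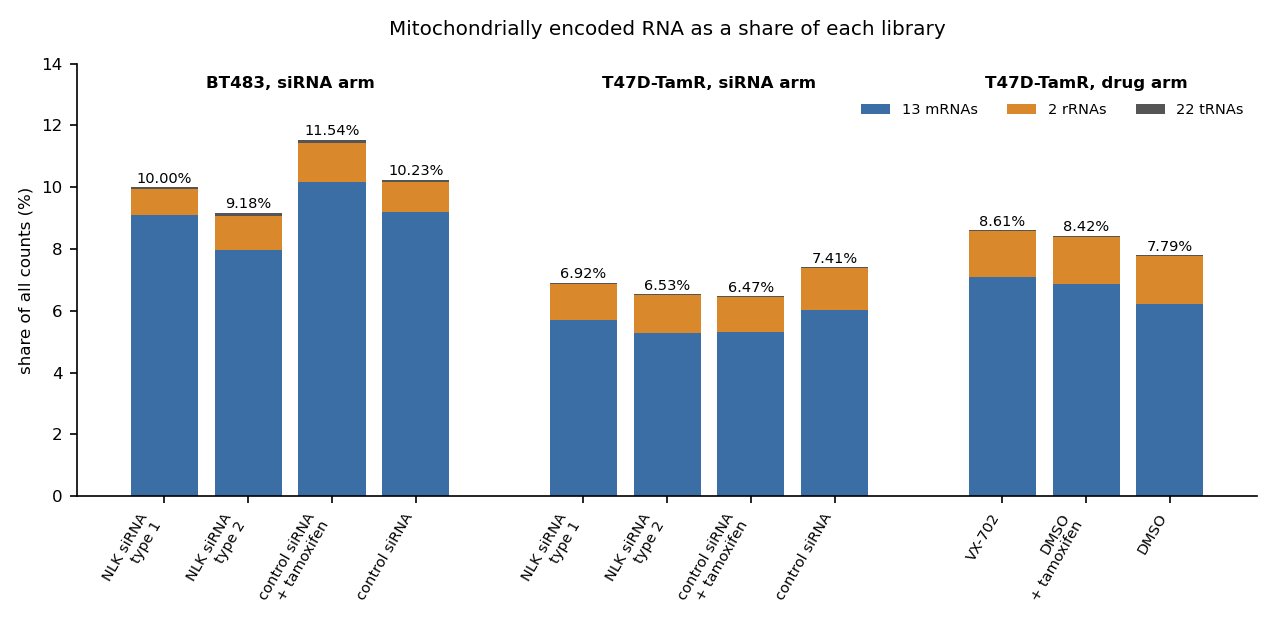
Share of all counts (%) taken by the 13 mitochondrial mRNAs, 2 rRNAs and 22 tRNAs in each of the 11 libraries, 1 stacked bar per library with its total above. BT483 bars reach 9.18 to 11.54% and T47D-TamR bars 6.47 to 8.61%. The rRNA layer takes 8.38 to 11.97% of a BT483 bar and 17.2 to 19.7% of a T47D-TamR bar.

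Per length, the order of the RNAs also differed. In BT483 MT-CO1 led, with 42250 to 57830 TPM (the authors' length-scaled levels), ahead of MT-CO3 at 30840 to 40380 TPM, and the ranges did not overlap. In T47D-TamR the leading pair was not separated: MT-CO1 stood at 20540 to 26710 TPM and MT-CO3 at 22030 to 26990 TPM. MT-ATP8 was the lowest mRNA in both lines, with 2427 to 3124 TPM in BT483 and 1657 to 2647 TPM in T47D-TamR. By median TPM among all 37 members, MT-RNR1 stood at place 17 in BT483 and at place 10 in T47D-TamR.

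The line comparison asked how the treated BT483 libraries differ from the T47D-TamR libraries of the same treatment. In the 8 siRNA-arm libraries, edgeR called 25 of the 36 members tested at an adjusted p under 0.05, with 13 higher and 12 lower in BT483. This is 69.4% of the members, beside 70.7% of all 21990 genes tested (35.6% higher and 35.1% lower), so the count itself does not set the members apart. Their median log2 fold change was 0.06, beside 0.01 over all genes tested. What differed among the members was direction by kind of RNA: 8 of 13 mRNAs were higher and 0 lower, 1 of 2 rRNAs was lower, and of 21 tRNAs tested 5 were higher and 11 lower. The tRNA of tryptophan, MT-TW, had 0 to 7 counts and did not pass the filter on low counts. Relative to the mitochondrial pool, with library sizes set to the summed counts of the members, the rRNAs and most plus-strand tRNAs were lower and MT-ND1, MT-CO1 and MT-ND6 still higher in BT483.

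**Figure D2:**
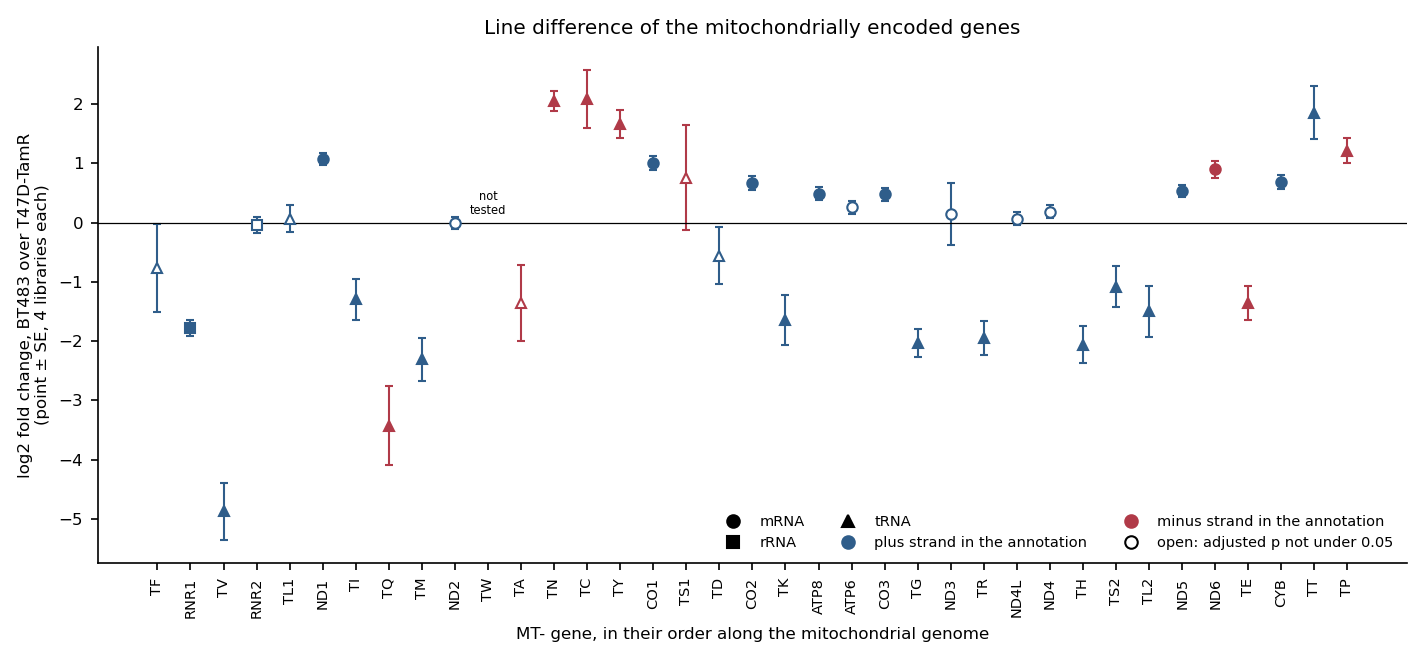
log2 fold change of BT483 over T47D-TamR for each mitochondrially encoded gene (point ± SE, 4 libraries per line), in gene order. Filled points passed an adjusted p of 0.05; all 8 called mRNAs lie above 0, and MT-RNR1 and MT-TV lie below it at -1.78 and -4.87.

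Of the 7 complex I mRNAs, which encode proton-pumping and quinone-site subunits of NADH dehydrogenase, 3 were higher in BT483 and 4 did not pass. MT-ND1, next to the quinone site, had 5670, 5038, 6138 and 5452 CPM in BT483, against 2683, 2534, 2870 and 2509 CPM in T47D-TamR. All BT483 values lay above all T47D-TamR values, with a log2 fold change of 1.07 (SE 0.10, edgeR adjusted p = 2.34e-06). MT-ND2, a proton-pumping subunit encoded past a tRNA cluster from MT-ND1, had 6775, 5992, 6514 and 6021 CPM in BT483, against 6831, 5602, 6761 and 6331 CPM in T47D-TamR. Its lines overlapped, and its log2 fold change was -0.01 (SE 0.11, edgeR adjusted p = 0.928). The TPM ratio of MT-ND1 to MT-ND2 was 0.912 to 1.03 in BT483 and 0.405 to 0.493 in T47D-TamR.

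MT-ND6, the complex I subunit encoded on the minus strand, had 1515, 1764, 1896 and 1696 CPM in BT483, against 1013, 806, 790 and 1106 CPM in T47D-TamR (log2 fold change 0.90, SE 0.14, edgeR adjusted p = 0.000131). MT-ND5, a proton-pumping subunit, was higher by a log2 fold change of 0.54 (SE 0.10, edgeR adjusted p = 0.000613), with 5026 to 5737 CPM in BT483, against 3476 to 4006 CPM in the siRNA arm and 3937 to 4512 CPM in the drug arm of T47D-TamR. Both genes were higher in 4 of 4 matched pairs. MT-ND4 and MT-ND4L, read from 1 shared mRNA, had log2 fold changes of 0.18 (SE 0.11) and 0.06 (SE 0.11) and did not pass.

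MT-ND3, a short membrane subunit of complex I, varied more within each line than between them. It had 1725, 2980, 3542 and 1606 CPM in BT483, against 3286, 1265, 1668 and 2779 CPM in T47D-TamR. In BT483 the high libraries were type 2 and control siRNA with tamoxifen, with 25728513 and 25274101 total counts. Type 1 and control siRNA of BT483 had 14637083 and 16859630. In T47D-TamR the high libraries were type 1 and control siRNA, and total counts ran from 23716207 to 26849956 in its siRNA arm. Its log2 fold change was 0.15 with an SE of 0.52 (edgeR adjusted p = 0.816), the largest SE among the mRNAs. Without the control siRNA and type 1 libraries it was 1.20 (edgeR adjusted p = 3.06e-05), in an alternative that was not planned. In T47D-TamR the share of counts in 995 nuclear genes shorter than 500 bases was highest in type 1 and control siRNA (1.796%, 1.25%, 1.45% and 1.74%). In BT483 that share was 0.947%, 1.10%, 0.962% and 1.01%. The parts of this share and of depth in MT-ND3 were not tested.

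MT-CYB, the only complex III subunit encoded in mitochondria, had 5920, 4284, 6297 and 5899 CPM in BT483, against 3605, 3369, 3327 and 3467 CPM in T47D-TamR. The siRNA arms did not overlap, while the drug arm of T47D-TamR, at 3893 to 4542 CPM, reached above the lowest BT483 library. The log2 fold change was 0.69 (SE 0.12, edgeR adjusted p = 0.000271).

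All 3 mRNAs of complex IV, cytochrome c oxidase, were higher in BT483. MT-CO1, the catalytic subunit, had 26040, 21710, 30660 and 27100 CPM in BT483, against 12790, 13450, 12620 and 13260 CPM in T47D-TamR. All BT483 values lay above all T47D-TamR values, with a fold change of 2.01 (log2 fold change 1.01, SE 0.12, edgeR adjusted p = 1.6e-05). MT-CO2, which takes electrons from cytochrome c, was higher by a log2 fold change of 0.66 (SE 0.11), and MT-CO3, the remaining core subunit, by 0.48 (SE 0.12). Of the mitochondrial counts, these mRNAs together held 41.6 to 45.5% in BT483, against 30.9 to 35.8% in T47D-TamR. In the authors' quantile-like normalized table the difference of MT-CO3 changed sign, to a log2 difference of -0.06 (limma adjusted p = 0.758); there the highest value is fixed at 14.83 in every library, and 10 to 13 of the top 13 values in a library belong to mitochondrially encoded genes.

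Of complex V, MT-ATP8, a small stator subunit, was higher in BT483 with 190, 168, 222 and 169 CPM, against 142, 120, 139 and 130 CPM in T47D-TamR (log2 fold change 0.49, SE 0.11, edgeR adjusted p = 0.00162). The drug arm of T47D-TamR, at 158 to 217 CPM, overlapped BT483. MT-ATP6, which forms the proton channel, was higher in 4 of 4 pairs but missed the threshold, with a log2 fold change of 0.26 (SE 0.11, edgeR adjusted p = 0.0508). It passed under some of the alternatives, for example with DESeq2 (adjusted p = 0.0174), where the log2 fold change was 0.29. Relative to the mitochondrial pool it did not pass, with a log2 fold change of -0.19 (SE 0.18, edgeR adjusted p = 0.35). Both genes lie on 1 mRNA and share 46 bases, so reads there can be given to either. The shared bases are in capitals in the stretch chrM:8497-8572 (plus strand), shown because they bear on both counts; how the counting treated them is not given in the sources used here.
MT-ATP8 and MT-ATP6: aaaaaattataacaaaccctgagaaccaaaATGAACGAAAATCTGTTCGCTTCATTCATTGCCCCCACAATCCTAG
The TPM ratio of MT-ATP8 to MT-ATP6 was 0.0950 to 0.113 in BT483 and 0.0828 to 0.101 in T47D-TamR. MT-ND4L and MT-ND4, which overlap by 7 bases, had a ratio of 1.11 to 1.19 in BT483 and 1.22 to 1.27 in T47D-TamR. Nuclear copies of these genes also draw reads: counts of MT-ATP6 copies were 4.66 to 8.27% of those of MT-ATP6, and those of all 407 annotated copies 0.612 to 0.998% of the mitochondrial counts, so MT-ATP6 and its copies are uncertain.

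The 2 rRNAs, which are neighbours on the plus strand with MT-TV between them, parted. MT-RNR1, the small-subunit rRNA, had 834, 1386, 1202 and 910 CPM in BT483, against 3821, 4221, 3279 and 3343 CPM in T47D-TamR. No libraries overlapped, also with the drug arm (3873 to 4472 CPM), and the log2 fold change was -1.78 (SE 0.14, edgeR adjusted p = 3.77e-07). MT-RNR2, the large-subunit rRNA, had 7080, 8958, 10790 and 8377 CPM in BT483, against 8846, 8365, 8591 and 10050 CPM in T47D-TamR (log2 fold change -0.04, SE 0.13, edgeR adjusted p = 0.798). The TPM ratio of MT-RNR1 to MT-RNR2 was 0.178 to 0.253 in BT483 and 0.544 to 0.825 in T47D-TamR. Nuclear RNAs known to lack a poly(A) tail summed to 62.2 to 396 CPM in BT483, 342 to 739 CPM in the siRNA arm of T47D-TamR and 585 to 874 CPM in its drug arm, with 3 to 7 of the 8 at 0. Their part in the rRNA difference was not tested.

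Among the tRNAs, 11 had at least 10 counts in every library; the other 11 fell under 10 counts in at least 1 library, never exceeded 164 counts, and included 4 with a 0. On the minus strand 4 of 8 tRNAs were higher in BT483, 2 were lower and 2 did not pass. Over all genes tested, 35.6% were higher and 35.1% lower. MT-TN, the asparagine tRNA, had 194, 261, 277 and 195 CPM in BT483, against 67.1, 47.6, 51.6 and 57.2 CPM in T47D-TamR, a log2 fold change of 2.05 (SE 0.17, edgeR adjusted p = 2.25e-06). MT-TC, the cysteine tRNA, had 161, 422, 368 and 174 CPM in BT483, against 82.2, 51.6, 47.2 and 67.8 CPM in T47D-TamR. Within BT483 its values for type 2 and for control siRNA with tamoxifen were more than 2 times those of the other pair, the same libraries in which MT-ND3 was high; its log2 fold change was 2.08 (SE 0.48, edgeR adjusted p = 0.0155). This call was lost when any 1 library other than the type 1 libraries was left out, with adjusted p-values of 0.0642 to 0.122 by edgeR and log2 fold changes of 1.73 to 2.37. MT-TP (proline) was higher by 1.21 (SE 0.22) and MT-TY (tyrosine) by 1.66 (SE 0.23) on the log2 scale. MT-TQ (glutamine, 0 to 5 counts in BT483, against 18 to 30 in T47D-TamR) and MT-TE (glutamate, log2 fold change -1.36, SE 0.28) were lower.

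On the plus strand 9 of 13 tRNAs tested were lower in BT483, 1 was higher and 3 did not pass, beside 35.1% of all genes lower and 35.6% higher. MT-TV, the valine tRNA that is also built into the large subunit of the human mitochondrial ribosome, had 0, 6, 7 and 0 counts in BT483, against 74, 116, 113 and 91 counts in T47D-TamR. Its fitted log2 fold change was -4.87 (SE 0.48, edgeR adjusted p = 3.14e-06) and depends on the prior count of the fit where a library is at 0. MT-TH (histidine) had 3.74, 8.27, 9.52 and 5.55 CPM in BT483, against 25.7, 20.0, 26.7 and 40.4 CPM in T47D-TamR (log2 fold change -2.06, SE 0.31, edgeR adjusted p = 0.000524). MT-TG (glycine) and MT-TR (arginine), which flank MT-ND3, were lower, with log2 fold changes of -2.03 (SE 0.23) and -1.94 (SE 0.29). MT-TS2 (serine) had a log2 fold change of -1.09 (SE 0.35) whose call was lost without the type 1 or the control siRNA library of either line (edgeR adjusted p = 0.0526 to 0.0784). MT-TT (threonine) was the plus-strand tRNA that was higher, with 0.963 to 2.72 CPM in BT483 and 0.347 to 0.754 CPM in the siRNA arm of T47D-TamR. Summed, the plus-strand tRNAs held 18.6 to 30.9 CPM in BT483 and 48.3 to 95.4 CPM in T47D-TamR. The minus-strand tRNAs held 553 to 981 CPM in BT483 and 168 to 273 CPM in T47D-TamR, most of it MT-TN, MT-TC and MT-TP.

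**Figure D3:**
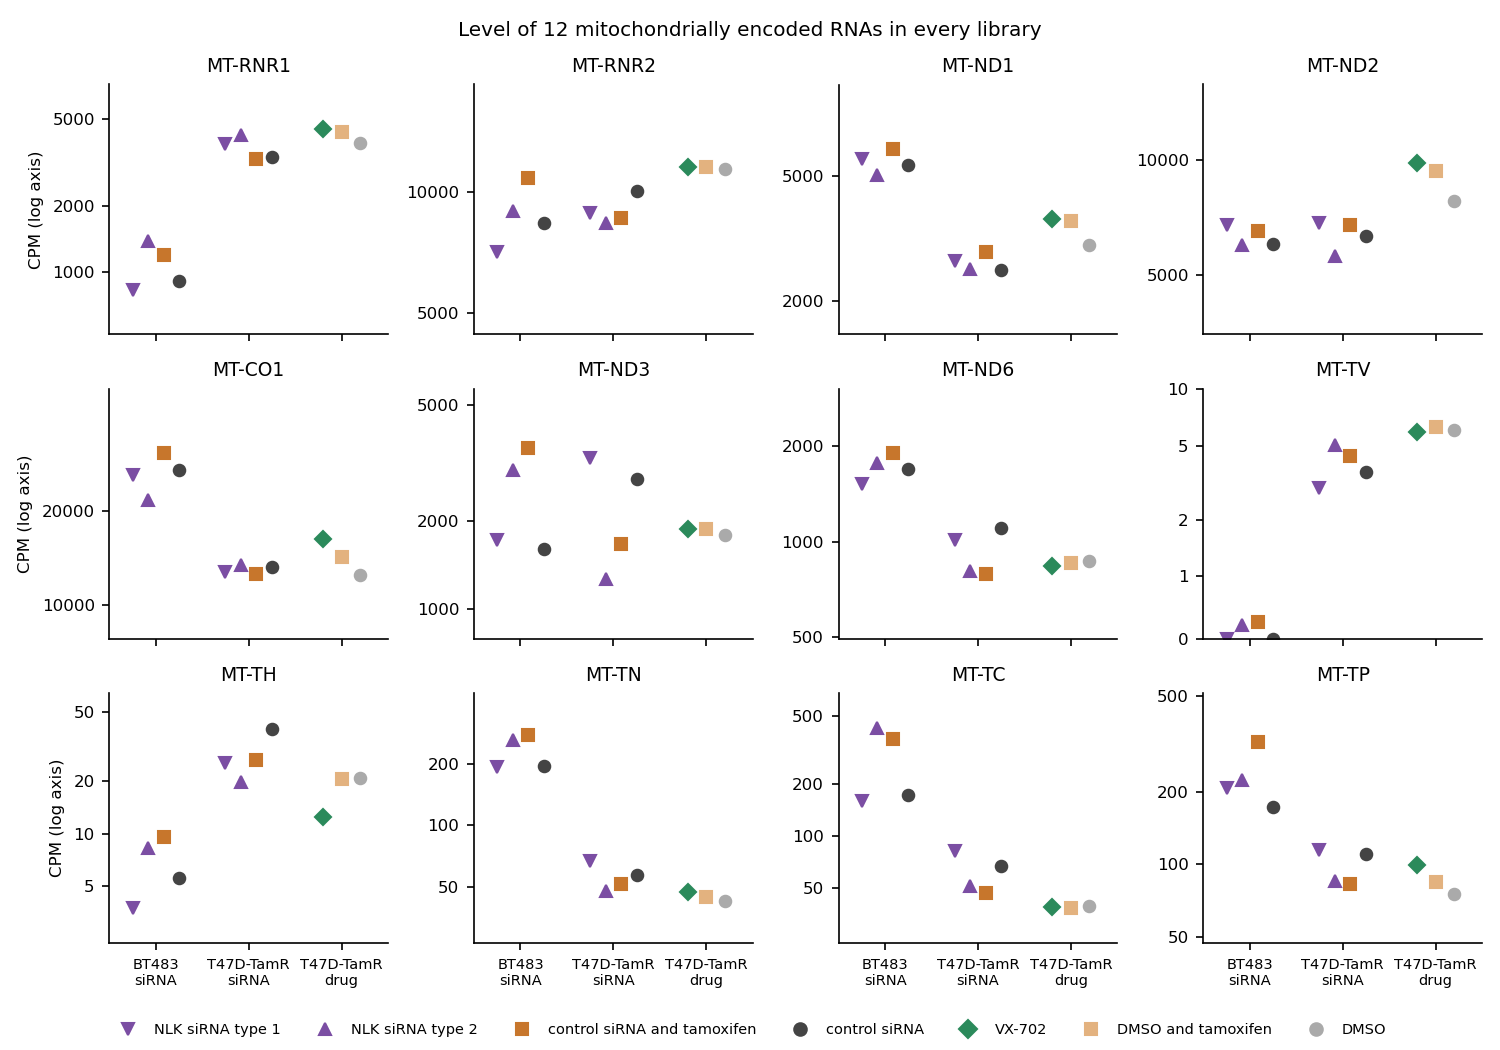
CPM of 12 mitochondrially encoded RNAs, 1 point per library, grouped by line and arm, with the treatment as symbol and colour. Axes are logarithmic, that of MT-TV linear under 1 CPM; MT-RNR1, MT-TV and MT-TH are lower and MT-ND1, MT-CO1, MT-ND6, MT-TN, MT-TC and MT-TP higher in BT483, while MT-ND3 spreads within each line.

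Relative to the mitochondrial pool, MT-ND1 (log2 fold change 0.62, SE 0.18, edgeR adjusted p = 0.00327) and MT-CO1 (0.56, SE 0.19, edgeR adjusted p = 0.0101) were higher, as was MT-ND6 (0.45, SE 0.18, edgeR adjusted p = 0.0274). MT-CO2, MT-CO3, MT-ATP8, MT-ND5 and MT-CYB, with log2 fold changes of 0.02 to 0.24 on that scale, did not pass. MT-RNR2 was lower on it (log2 fold change -0.49, SE 0.19, edgeR adjusted p = 0.0207), and MT-ND2 likewise (-0.46, SE 0.19, edgeR adjusted p = 0.0275). This scale was added after the values had been seen.

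The nuclear partners of the mitochondrial subunits moved the other way. Of 75 nuclear genes for subunits of complexes I, III, IV and V, 51 were lower in BT483, 4 were higher and 20 did not pass (35.1% and 35.6% of all genes tested were lower and higher), beside 8 of 13 mitochondrial mRNAs higher and 0 lower. Complex I had 23 of 37 lower and 4 higher, complex III 8 of 9 lower, complex IV 6 of 11 lower and complex V 14 of 18 lower, with median log2 fold changes of -0.70, -0.77, -0.77 and -0.99, beside 0.01 over all genes tested. NDUFB5, an accessory subunit of complex I, had 48.3 to 59.1 CPM in BT483 and 215 to 284 CPM in the siRNA arm of T47D-TamR, whose drug arm had 206 to 212 CPM (log2 fold change -2.22, SE 0.13, edgeR adjusted p = 4.89e-08). ATP5F1B, the catalytic subunit of the ATP synthase, had 575 to 677 CPM in BT483 and 1390 to 1660 CPM in the siRNA arm of T47D-TamR, whose drug arm had 1290 to 1570 CPM (log2 fold change -1.26, SE 0.11, edgeR adjusted p = 1.01e-06). UQCRH of complex III (log2 fold change -1.76, SE 0.17) and COX4I1 of complex IV (-1.17, SE 0.12) were lower too. The summed counts of the 13 mitochondrial mRNAs were 15.4, 10.3, 14.6 and 15.3 times those of the 75 nuclear genes in BT483, against 4.64, 6.21, 5.43 and 5.40 times in T47D-TamR. The drug arm had 7.55 (VX-702), 7.66 (DMSO with tamoxifen) and 6.80 times (DMSO). The share of counts in the 995 nuclear genes shorter than 500 bases also differed by line. It was 0.947 to 1.10% in BT483 and 1.25 to 1.80% in T47D-TamR, without overlap. Its part in the lower nuclear subunit counts of BT483, and so in these ratios, was not tested.

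**Figure D4:**
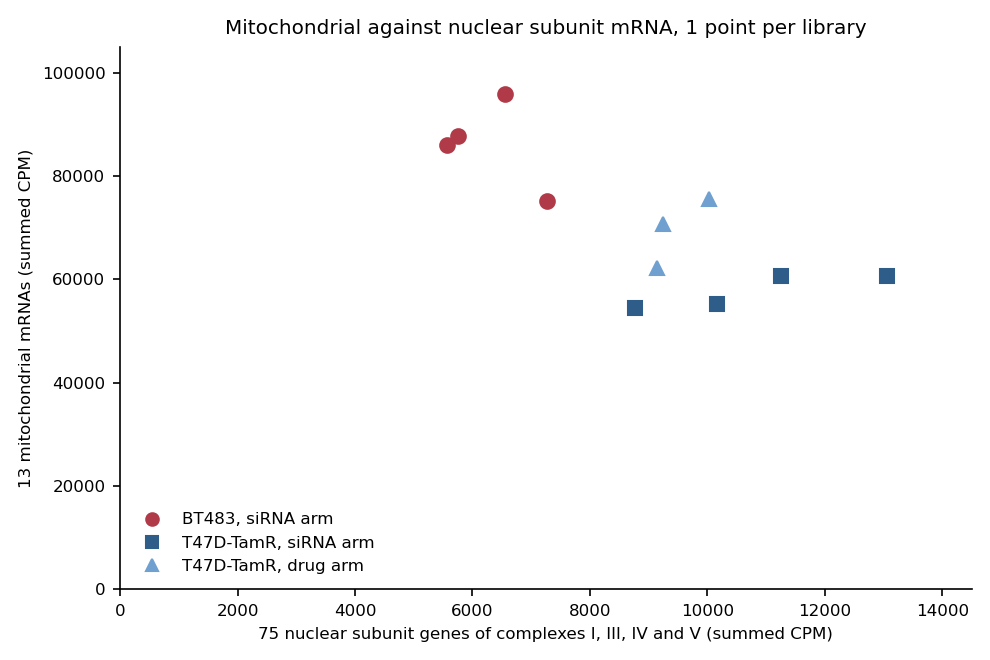
Summed CPM of the 13 mitochondrial mRNAs (vertical) against that of 75 nuclear subunit genes of complexes I, III, IV and V (horizontal), 1 point per library, both axes from 0. BT483 libraries lie at 5567 to 7264 CPM on the nuclear axis and T47D-TamR libraries at 8770 to 13060 CPM.

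Factors that act on mitochondrial DNA and RNA are counted beside the 35.6% of all genes called higher and 35.1% called lower in this comparison. No list was tested as a set. Median log2 fold changes were -0.38 (transcription), -0.38 (replication), -0.11 (processing and stability), -0.36 (rRNA modification and assembly) and -0.56 (biogenesis), beside 0.01 over all genes. Of 8 transcription factors of mitochondrial DNA, 2 were higher and 5 lower in BT483; POLRMT, the polymerase, was lower (log2 fold change -0.76, SE 0.12, edgeR adjusted p = 0.000106) and MTERF4 higher (0.81, SE 0.12, edgeR adjusted p = 9.9e-05). Of 12 replication genes 2 were higher and 7 lower, led by TWNK, the replicative helicase, with 12.1 to 16.2 CPM in BT483 and 65.2 to 72.3 CPM in the siRNA arm of T47D-TamR (drug arm 50.9 to 62.2 CPM; log2 fold change -2.27, SE 0.13, edgeR adjusted p = 3.15e-08), and TOP3A, a topoisomerase (-2.21, SE 0.14). Of 19 genes for processing and stability of mitochondrial RNA, 4 were higher and 8 lower, among them FASTK, required for MT-ND6 mRNA (1.07, SE 0.11), and REXO2, which degrades short RNAs (-1.61, SE 0.15). Of 13 genes for rRNA modification and ribosome assembly 4 were higher and 6 lower; NSUN4, which methylates the small-subunit rRNA, was lower (-1.16, SE 0.12), as was the assembly GTPase MTG2 (-1.03, SE 0.11). Of 7 regulators of mitochondrial biogenesis 2 were higher and 4 lower, with the coactivators PPARGC1B (-2.11, SE 0.13) and PPRC1 (-0.71, SE 0.13) leading. NEAT1 and MALAT1, RNAs kept in the nucleus, were both higher in BT483 (log2 fold changes 1.20, SE 0.14, and 1.22, SE 0.32). Of 8 luminal breast markers 6 were higher and 0 lower, and of 7 fibroblast markers tested 5 were lower and 0 higher. The part of any of these in the mitochondrial differences was not tested.

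NLK knockdown did not detectably alter any member. In the fit of all 11 libraries, with line and arm as blocks, edgeR called 0 of 36 members over 4 knockdown and 2 control siRNA libraries, beside 0.00416% of all genes tested (1 gene); 0 members had an unadjusted p under 0.05, and DESeq2 and limma called 0. The mitochondrial share was 9.996% (type 1) and 9.18% (type 2) in BT483, against 10.23% with control siRNA, and 6.92% and 6.53% in T47D-TamR, against 7.41%. All 4 knockdown libraries lay below their control, but each line has 1 control library, which its 2 knockdown libraries share, and the tamoxifen library of T47D-TamR (6.47%) also lay below that control. MT-CO1 had a log2 fold change of -0.08 (SE 0.13), MT-ND1 0.03 (SE 0.11) and MT-RNR2 -0.16 (SE 0.14). The largest among the mRNAs and rRNAs was that of MT-RNR1, 0.27 (SE 0.17, edgeR adjusted p = 0.88), higher in 3 of 4 libraries. Within lines edgeR also called 0 members, with 0.00416% of genes called in each, and the test of a difference between lines called 0 members and 0% of genes, with 1 member at an unadjusted p under 0.05 (MT-TD).

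Between the 2 siRNAs edgeR called 0 of 36 members as well (0.470% of genes; 2 members at an unadjusted p under 0.05; 0 by DESeq2 and limma). MT-RNR1 had 1386 CPM with type 2 and 834 CPM with type 1 in BT483, and 4221 and 3821 CPM in T47D-TamR, a log2 fold change of 0.43 (SE 0.17, edgeR adjusted p = 0.436). TFAM, which packages mitochondrial DNA and starts its transcription, was lower with type 2. It had 25.4 CPM with type 2 and 43.8 CPM with type 1 in BT483, against 43.4 CPM with control siRNA. In T47D-TamR it had 23.5 and 65.0 CPM, against 78.6 CPM with control siRNA. Without NLK siRNA, TFAM in T47D-TamR had 50.8 CPM with control siRNA and tamoxifen and 60.1 CPM with DMSO and tamoxifen. It had 56.5 CPM with VX-702 and 77.5 CPM with DMSO. BT483 with control siRNA and tamoxifen had 45.8 CPM. The log2 fold change of type 2 over type 1 was -1.11 (SE 0.20, edgeR adjusted p = 0.0323), and the other 7 transcription factors were not called. The call was lost without any of 5 libraries: type 1 of T47D-TamR (log2 fold change -0.98, edgeR adjusted p = 0.43), type 2 of T47D-TamR (-0.81, edgeR adjusted p = 0.255), type 1 of BT483 (-1.23, edgeR adjusted p = 0.242), DMSO with tamoxifen (edgeR adjusted p = 0.108) and DMSO (edgeR adjusted p = 0.0671). The 13 mitochondrial mRNAs had log2 fold changes of -0.30 to 0.00 in the same comparison.

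Tamoxifen did not detectably alter any member either. Over 3 pairs edgeR called 0 of 36 members (0.0416% of genes; 0 at an unadjusted p under 0.05; 0 by DESeq2 and limma). The share of mitochondrial counts was higher with tamoxifen in BT483 (11.54% with and 10.23% without) and in the drug arm (8.42% with and 7.79% without), and lower in the siRNA arm of T47D-TamR (6.47% with and 7.41% without). MT-ATP8 (log2 fold change 0.23, SE 0.12, edgeR adjusted p = 0.797) and MT-ND1 (0.21, SE 0.11, edgeR adjusted p = 0.814) were higher in 3 of 3 pairs without passing. The BT483 library with tamoxifen had 25274101 total counts and its control 16859630. Its tRNAs summed to 1012 CPM and those of the control to 572 CPM. BT483 without tamoxifen had 950 CPM with type 2 (25728513 counts) and 594 CPM with type 1 (14637083). The part of depth was not tested. In BT483 alone, 1 library against 1 within the fit, edgeR called 0 members beside 1.49% of genes, and the median log2 fold change of the members was 0.40, beside 0.00 over all genes. MT-TP, at 320.5 CPM with and 173.5 CPM without tamoxifen, came nearest there (0.88, SE 0.25, edgeR adjusted p = 0.151). In T47D-TamR edgeR called 0 members beside 0.221% of genes, and the test of the difference between lines 0 members beside 0.691% (2 at an unadjusted p under 0.05). MT-TP was called there without the filter on low counts (log2 difference 1.07, edgeR adjusted p = 0.012), against an edgeR adjusted p of 0.253 with it.

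**Figure D5:**
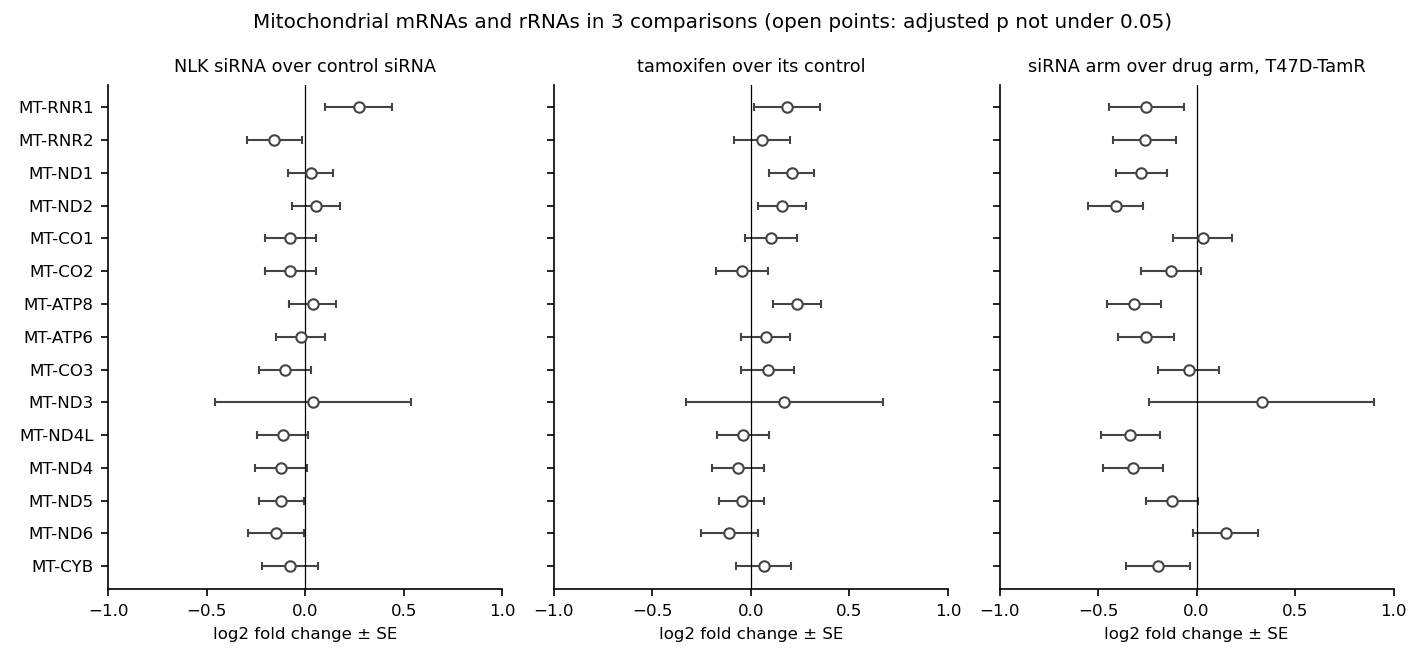
log2 fold change ± SE of the 13 mitochondrial mRNAs and 2 rRNAs for NLK siRNA over control siRNA, tamoxifen over its control, and the siRNA arm over the drug arm of T47D-TamR. No point passed an adjusted p of 0.05; MT-ND3 has the widest bars.

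The siRNA arm and the drug arm of T47D-TamR were also compared, and edgeR called 0 of 36 members (0.0333% of genes, and 0 members by DESeq2 and limma). Transfection, the DMSO of the drug arm and any separate handling of the arms cannot be told apart here. At an unadjusted p under 0.05 there were 9 of 36 members, beside 1227 of 24023 genes. MT-ND2 had 5602 to 6831 CPM in the siRNA arm and 7789 to 9838 CPM in the drug arm, which do not overlap (log2 fold change -0.41, SE 0.14, edgeR adjusted p = 0.899; 0.00697 without the filter on low counts). MT-ND1, MT-ND4, MT-ND4L and MT-ATP8 had log2 fold changes of -0.28 to -0.34, and MT-TY one of 0.91 (SE 0.31).

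VX-702 was set against DMSO as 1 library against 1, with no replicate and no test. Of 24 members at a mean of 5 CPM or more, 18 were higher and 6 lower with VX-702, and the median log2 difference was 0.20, beside 0.08 over 11732 genes. Their summed counts differed by 0.24 on the log2 scale, or by 0.14 without TMM factors. None exceeded 1.5-fold upwards and 1 did downwards, beside 5.32% of genes past that fold (1.38% upwards and 3.94% downwards). That 1 was MT-TH, with 12.4 CPM under VX-702 and 20.9 CPM under DMSO (log2 difference -0.75, exact 95% interval -0.96 to -0.54, counting error only). MT-CO1 had 16290 CPM under VX-702 and 12530 CPM under DMSO (log2 difference 0.38), and MT-RNR2 11540 and 11400 CPM (0.02). The drug arm's tamoxifen library had 14240 CPM of MT-CO1, and the siRNA arm 12620 to 13450 CPM.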

How the data were processed

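Stranded mRNA libraries of 11 samples were sequenced from both fragment ends, per the labels' protocols, and the submitters' processing notes name GRCh38 as the build. Aligner, annotation and counting settings are not given in the sources consulted; counts and TPM of the members implied the gene lengths of GENCODE 29. The authors deposited whole-number counts per gene symbol for each library and log2(TPM + 1) values (pseudocount 1). They also deposited a table of log2 TPM values with nearly 1 distribution in all libraries. Poly(A) selection affects rRNAs and tRNAs, and reads shared with nuclear copies or overlapping genes may be split or dropped.

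Groups came from the sample titles. Counts were tested with edgeR 4.0.16 in R 4.3.3 (TMM factors 0.937 to 1.06, filterByExpr, robust quasi-likelihood F test, Benjamini-Hochberg adjustment over all genes tested, threshold 0.05). Knockdown, tamoxifen and arm were terms of a fit of all 11 libraries blocked by line and arm (24023 genes, 5 residual degrees of freedom). The line difference came from the 8 siRNA-arm libraries blocked by treatment (21990 genes, 3 residual degrees of freedom); further terms gave the siRNA difference and the effects per line, 11 comparisons in all. Since each group is 1 library, its spread is taken to be that of the other groups. VX-702 minus DMSO used a prior count of 2 and genes at a mean of 5 CPM or more. At these depths 3 counts, the floor for values not told from 0, correspond to 0.111 to 0.205 CPM. Alternatives used DESeq2 1.42.0, limma 3.58.1 on the deposited log2 table, other scalings and filters, and each library left out. The fits were tested on simulated data. 0 columns were left unmapped. The members, gene lists and comparisons were chosen with earlier results of these data known. Every MT- gene was accounted for. Of each other list no more than the 2 genes with the smallest p were named, and only where any was called.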

Additional observations from a re-analysis of the deposited data

How the results depend on the processing

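Among the recomputed values of the 25 line calls, 418 kept their direction and their side of the threshold, 25 kept their direction but missed it, and 1 reversed: MT-CO3 was -0.0587 with limma on the deposited log2 table. The count of members called between lines ran from 23 to 25 with 1 library left out and from 20 to 27 over all alternatives; 26 were called with no replicate block (libraries paired by treatment), 25 of them shared. The nuclear subunit genes lower in BT483 numbered 34 to 58. In the knockdown, tamoxifen and siRNA comparisons 0 members were called under every alternative run, with or without the block. Without the filter on low counts 1 member was called between the arms (MT-ND2) and 1 in the line difference of tamoxifen (MT-TP); the cause was not tested. The summed VX-702 difference of 0.2436 was 0.1439 with library totals and 0.2403 with library sizes outside the members. TFAM, type 2 minus type 1, kept its direction with adjusted p-values of 0.000483 to 1. No value could be computed for the line difference of either treatment without the BT483 control siRNA library, nor for that of tamoxifen without its BT483 library. Members with few counts are limited by depth.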
